A study of Drosophila melanogaster with 8 samples.

Results

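The sites described here are places inside genes where the Ribbon (Rib) fusion protein was found in chromatin of Drosophila embryos under the btl driver, in both btl peak lists, and where the list of the trh driver held no region. Each is a region of the btl list (replicates 1 and 2) that shared at least 1 bp with a region of btl replicate 3 and none with the trh list. Its summit, the point of strongest signal, lay inside a protein-coding gene and over 500 bp from every protein-coding gene end. There were 2602 such sites among the 8693 regions of the btl list. Of the 4515 btl regions with such a summit, 3730 (82.6%) shared bases with replicate 3, and the 2602 are those of the 3730 with no trh region. The sites were thus chosen by measured values, the presence or absence of a called region in the 3 lists and the place of the btl summit, and these properties are given as a description with no test. Peaks are not replicates of a condition, and the comparisons with other classes of sites are descriptions as well.

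Rib belongs to the BTB family of nuclear proteins, which bind DNA and pair through their BTB module, and embryos without it form misshapen tracheal tubes and salivary glands. The trachea is the branched airway of the embryo. Its cells are specified by the transcription factor Trachealess (trh), and its branches grow out when the FGF receptor Breathless (btl) on tracheal cells meets its ligand Branchless (bnl). Transcription factors commonly act through enhancers, short stretches of DNA that often lie in introns, far from the ends of a gene. The files and the gene table used here give no exons and no strand, so intron, exon, upstream and downstream are not distinguished.

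The 8 samples were whole embryos of stage 11 to 15 by the sample characteristics (11 to 16 by the protocol), raised at 25°C. Each driver makes the yeast protein GAL4 under control of a tracheal gene, and GAL4 turns on the UAS transgene; the btl driver is known for the trachea, and the trh driver for trachea and salivary gland. The protocol names several independent embryo collections, without saying how they were divided among samples. Immunoprecipitates with a goat antibody to GFP came from 3 samples with the btl-GAL4 driver and 2 samples with the trh-GAL4 driver, and 3 inputs (2 btl, 1 trh) were not immunoprecipitated. Titles and genotypes read btl-GAL4::UAS-GFP and trh-GAL4::UAS-GFP, while the protocol and sample descriptions give a rib-GFP fusion. The second reading is used here, and if the titles are right the values measure GFP without Rib. All samples carried a driver and a UAS transgene, and no immunoprecipitate without the fusion was analysed here. Replicate 3 of btl had its own library kit and sequencing centre, which cannot be told apart from the replicate. Because whole embryos were used, strong binding in few cells and weak binding in many cells cannot be told apart in any value below. The lists also do not separate native DNA from DNA of the transgenes.

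In the btl list, the sites had a median strength close to that of the whole list and below that of sites also found with trh. The authors' fold enrichment, a ratio of immunoprecipitate to background at the summit, had a median of 2.97 over the 2602 sites (95% order-statistic interval 2.93 to 3.01) and a range from 1.23 to 11.1. Over the whole btl list the median was 2.87. The 1128 intragenic sites that did overlap a trh region, called shared sites below, had a median of 3.45. The authors' -log10 q, the significance of a peak, was 21.8 at the median site, 22.0 in the whole list and 40.5 at the shared sites. The median width was 749.5 bp, against 692 bp in the whole list and 1045 bp at shared sites. A wider region can touch a trh region more easily, so the rule may set part of the contrast with shared sites. The deposited score of the btl list, a scaled measure of agreement between replicates 1 and 2, was at its cap of 1000 for 64.9% of the sites (1688 of 2602, Wilson 95% interval 63.0 to 66.7%). It was at the cap for 62.4% of the whole list and for 84.0% of shared sites.

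Absence from the trh list was the usual state of a btl region. Of all btl regions, 74.8% had no trh region, and of the 3730 intragenic regions found in both btl lists 69.8% had none. The figures were 73% of the 2232 gene-end regions and 75.5% of the 1023 intergenic regions found in both btl lists. The trh list held 3210 regions, so its length limits what could be found. Among the strongest 10% of the btl list by fold enrichment, 49.1% of the intragenic regions had no trh region (271 of 552, Wilson 95% interval 44.9 to 53.3%), and in the other 9 bins of equal size the share ran from 65.9 to 80.0%. Ranked by -log10 q, the share was 86.6% in the weakest bin and 35.8% in the strongest. When the btl list was shortened to its 3210 regions with the highest -log10 q, 923 of 1654 intragenic regions in replicate 3 (55.8%) had no trh region. Fewer or weaker reads in the trh libraries and less binding under that driver cannot be told apart from these lists.

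**Figure D1:**
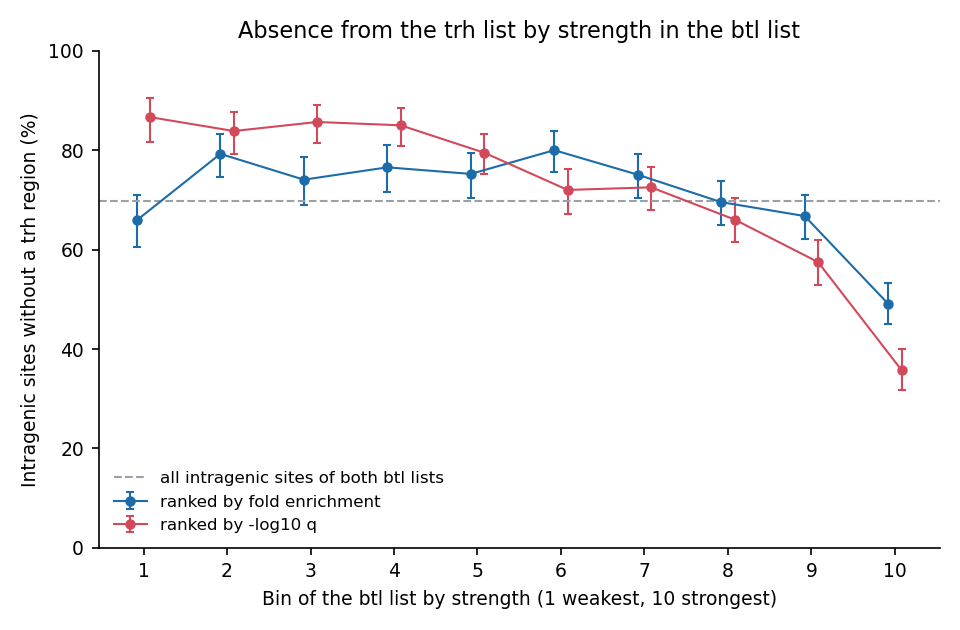
Share of intragenic regions in both btl lists that had no trh region (y axis, percent), by bin of the btl list from weakest to strongest (x axis), ranked by fold enrichment (blue) or -log10 q (red). Bars are Wilson 95% intervals, which cover counting error only, and the dashed line marks 69.8%. In the strongest bin the shares were 49.1% and 35.8%.

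Some sites lay near a trh region without touching one. The distances were not computed for other btl regions, so no background stands beside them. The nearest trh region was a median of 6287 bases away, within 500 bases for 188 sites (7.23%) and within 5000 bases for 1174 (45.1%). The closest were in cno, the junction protein Canoe, at 63 bases, in the kinase gene Tlk at 75 bases and in Mical, an actin-oxidising enzyme, at 78 bases. On the other side of the limit, the shared sites with the smallest trh overlap were in Eip75B with 30 bp and in CG12991 with 81 bp. At the gene-end limit, sites just inside were 502 bp from an end in CG43954 and Lasp (btl fold 6.08) and 506 bp in Rap2l (2.03). Regions just outside it were 493 bp from an end in bdg (1.81), 490 bp in CG30114 (2.37) and 488 bp in kat80 (2.09). The smallest overlap with replicate 3 was 28 bp, in coro.

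The position of the summit was not used in matching the btl lists, and the overlap required between regions bounds how far apart the summits can lie. The nearest replicate 3 summit was a median of 74 bp from the btl summit and lay within 50 bp at 36.7% of the sites, within 100 bp at 62.8% (1634 of 2602, Wilson 95% interval 60.9 to 64.6%) and within 200 bp at 88.4%. At shared sites the median distance was 67 bp, with 66.8% within 100 bp (interval 64.0 to 69.5%), and over all btl regions in replicate 3 it was 71 bp, with 64.5% within 100 bp. The distance was 60 bp at the median of the upper 25% of the sites by btl fold enrichment and 81 bp in the lower 25%. Replicate 3 had 1 summit in the overlapping region at 44.0% of the sites, against 27.3% of shared sites. It had 5 or more at 13.0% of the sites, against 22.1% of shared sites. Shared sites were also wider, with a median of 1045 bp against 749.5 bp, and the part of width in these counts was not tested.

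Strength in one btl list was only weakly related to strength in the other. The fold enrichment at the nearest replicate 3 summit had a median of 2.54 (range 1.45 to 10.3). It was 3.48 at shared sites and 2.85 over all btl regions found in replicate 3, so by this measure the sites were below both. Across the 2602 sites, Spearman's rank correlation between the fold enrichments of both btl lists was 0.118. Between the -log10 q values it was 0.330, with the highest value among the overlapping regions used for replicate 3. Shared sites had correlations of 0.0344 and 0.323 in the same order, so the weak relation was not particular to the sites. These are descriptions across peaks of the same genome, which share mappability and base composition. Of all 2602 sites, 154 (5.92%) were in the upper 10% of replicate 3 summits and 138 (5.30%) in the lower 10%. Of the 271 sites in the upper 10% of the btl list, 29 (10.7%) were in the upper 10% of replicate 3 and 1 was in the lower 10%. Of the 203 sites in the lower 10% of the btl list, 32 (15.8%) were in the upper and 4 (1.97%) in the lower 10% of replicate 3. At those 32 sites the nearest replicate 3 summit was a median of 112.5 bp away, against 52 bp at the 29 sites high in both lists. Both ends of the btl list thus held larger shares of replicate 3's strongest summits than all sites did.

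The 10 sites highest in the btl list came from 10 genes. The highest fold enrichment, 11.1, was in sona, which encodes a secreted metalloprotease (2R, 23784403 to 23785631, summit 23784867, in dm6 as all positions here). Replicate 3 had a fold enrichment of 4.57 at a summit 58 bp away. RapGAP1, a regulator of the GTPase Rap1, followed with 9.92 in the btl list and 3.50 in replicate 3 (2L, summit 7545828). Spn, the phosphatase regulator Spinophilin, had 9.20 and 3.99 in the same order, and Trim9, a ubiquitin ligase, had 9.06 and 4.72. The kinase gene Btk had 7.95 and 4.22, and bun, a TSC22-family gene, had 7.94 and 2.91. Others of the first 10 were in CG1136, CG13917 and btl. The distance of the 10 to the nearest trh region ran from 1300 bases at btl to 18399 bases at CG1136.

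The strongest replicate 3 sites were other sites. The highest, 10.3, was in chn, the zinc finger factor Charlatan (2R, summit 15128304), where the btl list had 2.27. The replicate 3 summit there was 297 bp away. Pepck2, an enzyme of gluconeogenesis, had 8.67 in replicate 3 and 1.43 in the btl list. Its replicate 3 summit was 501 bp from the btl summit and outside the btl region. The -log10 q of that btl region was 1.27, against 21.8 at the median site. Ypel came next, with its replicate 3 summit 436 bp away. The tropomyosin gene Tm1 had 7.21 and 2.00, and the dioxygenase gene Tet had 7.16 and 2.07, in the same order. Cyp1, a cyclophilin, had 7.14 and 4.67. The others of the first 10 were in Mapmodulin, the poly(A) polymerase gene hrg, the translation elongation factor gene eEF1alpha1, and sfl, which encodes a heparan sulfate sulfotransferase. Their replicate 3 values ran from 6.95 to 7.05. At the low end of the btl list were sites in CG1677 with 1.23, Nup153 with 1.27 and svr with 1.35. Their -log10 q values in the btl list were also low, at 0.916, 1.74 and 2.07 in that order.

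**Figure D2:**
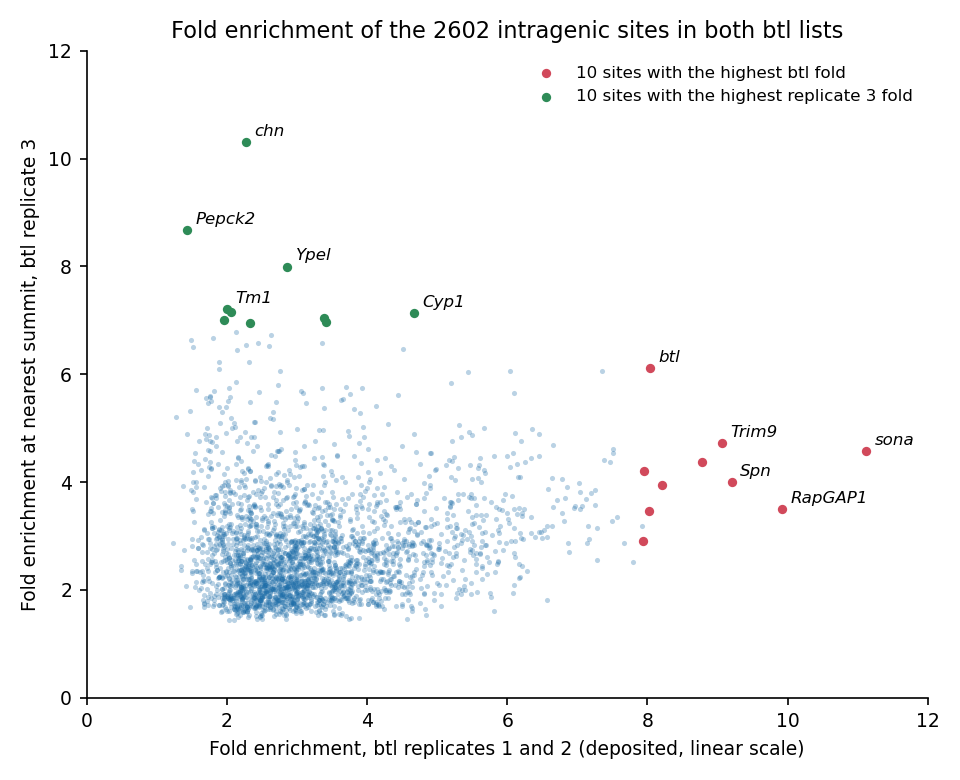
Authors' fold enrichment of the 2602 sites in the btl list (x axis) and at the nearest summit of btl replicate 3 (y axis), on linear scales. Red and green points are the 10 sites highest in each list, which do not overlap: chn reached 10.3 in replicate 3 and 2.27 in the btl list, and sona 4.57 and 11.1.

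The strongest sites lay farther from gene ends than the rest in the btl list, and nearer to them in replicate 3. In the upper 25% of the sites by btl fold enrichment the median distance to the nearest gene end was 6127 bp, and 15.5% lay within 2000 bp of an end. In the lower 25% these values were 3910.5 bp and 29.5%. By replicate 3 fold enrichment the upper 25% had a median of 4111 bp with 29.2% within 2000 bp, and the lower 25% had 5610.5 bp with 19.7%. The btl values changed in 1 direction over the 4 classes, but the replicate 3 values did not: below the upper 25%, its 3 classes had 18.0 to 19.7% within 2000 bp and medians of 4949.5 to 6065 bp. The 32 sites low in btl and high in replicate 3 had a median distance of 1357 bp, and the 29 sites high in both had 6580 bp. Library kit and sequencing centre differed between these lists, and their part in this was not tested.

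Over all sites the median distance to a gene end was 5122 bp, and 1328 sites (51.0%) lay over 5000 bp from any end. Shared sites had a median of 5742.5 bp. On the sequence where a summit could qualify, 75.6 Mb in all, there were 34.4 sites per Mb. The density was 35.8 per Mb on 2L, 35.5 on 2R, 38.2 on 3L, 30.7 on 3R and 34.9 on X, and it was 8.58 on chromosome 4, which held 8 sites.

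The sites fell in 1233 of 13922 protein-coding genes, or 8.86%. Of these genes, 670 held 1 site, 430 held 2 to 4, and 133 held 5 or more. The last group contained 36.4% of the sites. Host genes were long, with a median of 16580 bp (95% order-statistic interval 15236 to 17636 bp) against 2163 bp for all genes. The rule sets part of this contrast, because short genes have little sequence over 500 bp from an end. The 6519 genes of up to 2 kb had 1.66 Mb where a summit could qualify, and 3 of them held a site. Among genes over 10 kb, 43% held a site. The share of genes with a site was 3.03% at 2 to 5 kb, 17.4% at 5 to 10 kb and 57.0% over 50 kb. Site density did not keep rising with length: it was 46.4 per Mb of qualifying sequence in genes of 10 to 20 kb and 28.3 per Mb in genes over 50 kb. Shared sites had the same profile, with 19.5 and 13.1 per Mb.

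**Figure D3:**
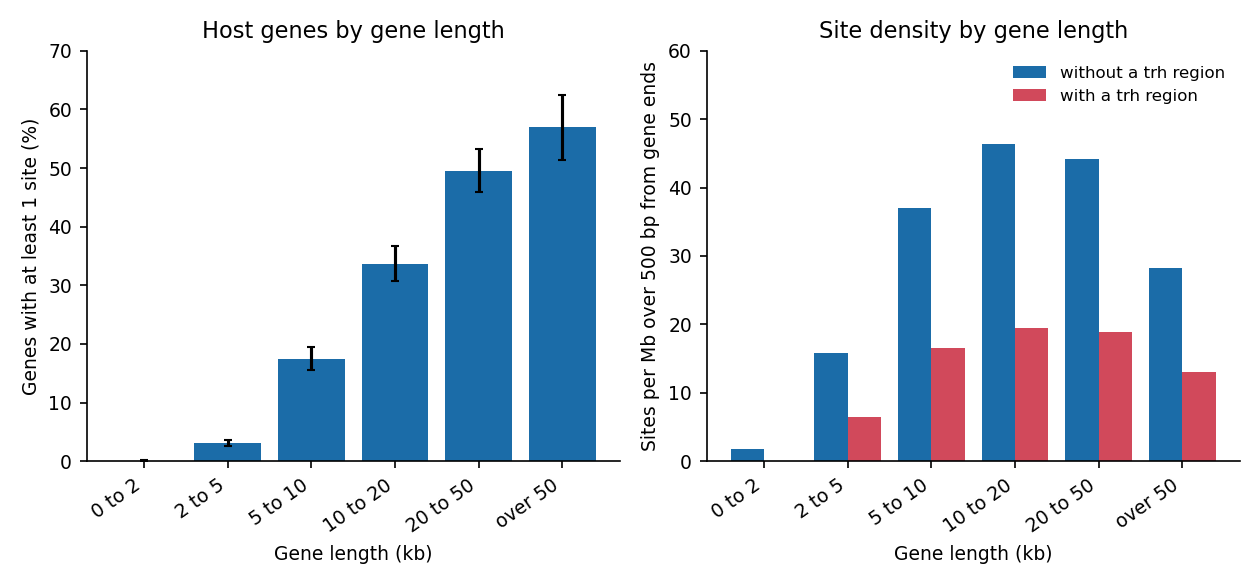
Left, share of protein-coding genes with at least 1 site by gene length (percent, Wilson 95% intervals). Right, sites per Mb of gene sequence over 500 bp from gene ends, without (blue) and with (red) a trh region. The share of host genes reached 57.0% over 50 kb while density was highest, 46.4 per Mb, at 10 to 20 kb.

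Many host genes had a trh region elsewhere along their length. A trh region lay in or within 500 bp of 706 of the 1233 host genes (57.3%), and 448 (36.3%) also held a shared site. Of all protein-coding genes, 15.0% had a trh region and 5.11% held a shared site, but these are shorter genes: 14.2% were over 10 kb, against 68.9% of the hosts. Among genes over 10 kb, 46.1% had a trh region and 26.8% held a shared site, against 67.1% and 47.0% of the 849 hosts of that length. No trh region was found at the other 527 host genes (42.7%), of which 279 were over 10 kb.

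The 15 genes with the most sites held 11 to 17 each. The Wnt receptor gene fz2 (3L, 19140975 to 19235373) held 17 sites with btl fold enrichments from 2.04 to 5.89 and replicate 3 values from 1.62 to 3.77. Another 3 sites in fz2 were shared with trh. The corepressor gene sbb (2R, 18278198 to 18357296) also held 17, from 1.93 to 4.46 in the btl list, with 2 shared. The junction scaffold gene pyd, the fly ZO-1, held 15 sites and 1 shared. Its strongest site reached 7.35 in the btl list and 6.07 in replicate 3, with summits 3 bp apart (3R, summit 8928252).

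Svil, the actin-binding supervillin, held 14 sites. There were 13 each in sick, in the RasGAP gene raskol and in Eip75B, a nuclear receptor gene induced by the moulting hormone ecdysone. RapGAP1, bun and the homeodomain cofactor gene hth held 12 each. The other 5 genes, with 11 each, were pum, apt, cv-c, pnt and nuf. pum encodes a translational repressor and nuf an effector of the vesicle GTPase Rab11. Per length the ranking differed: apt had 3.27 sites per 10 kb of qualifying sequence, raskol 3.18, nuf 2.92 and sbb 2.53, while pum had 0.653 and sick 0.841.

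The division between sites with and without a trh region differed widely among these genes. apt, a transcription factor gene known for a role in tracheal development, had 11 sites, no shared site and no trh region (2R, 23564891 to 23599526). Its btl fold enrichments ran from 1.69 to 6.87, and the trh region nearest to the strongest site was 11597 bases away. Eip75B had 13 sites without and 19 with a trh region, interleaved along the gene, and its highest fold enrichment without one was 5.02. bun had 12 and 10, and pum 11 and 8. hth had 12 and 1.

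**Figure D4:**
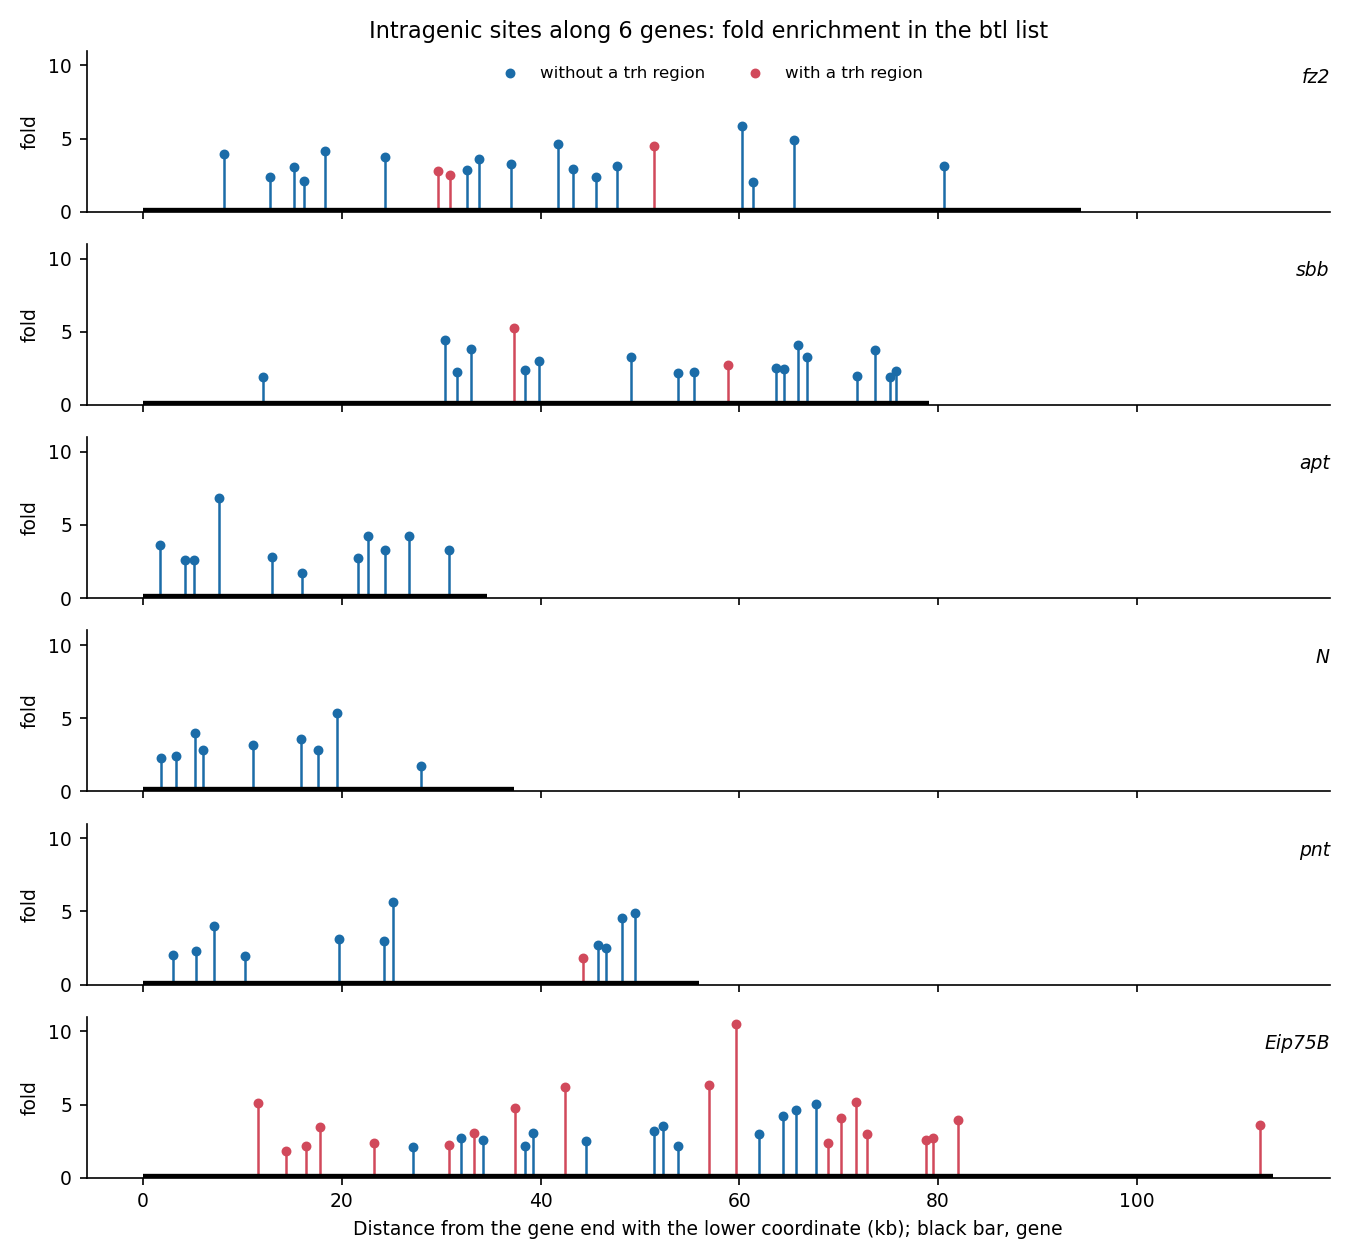
Intragenic sites along 6 genes: x axis, distance in kb from the gene end with the lower coordinate; y axis, authors' fold enrichment in the btl list; blue, without a trh region; red, with one; black bar, gene. apt and N held sites of the first kind only (11 and 9), and Eip75B held 13 and 19.

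Gene lists of pathways and tissues were read against these backgrounds, 8.86% of all genes and 43% of genes over 10 kb. Of the FGF pathway, 8 of 9 genes held a site, including 7 of 7 over 10 kb. The receptor gene btl (3L, 14075772 to 14083229) held 2. The stronger had a btl fold enrichment of 8.04, percentile 99.4 of the list, and 6.12 in replicate 3 at a summit 6 bp away (14076640). Its summit was 517 bp from a gene end, just inside the 500 bp limit. The weaker had 4.81 and 3.71, with its summit at 14078132. Another site of the gene, at 14079076, was shared: it had 7.90 in the btl list, 4.81 in replicate 3 and 3.10 in the trh list. The trh region there lay 1300 bases from the strongest site and 490 bases from the weaker one. At this gene, signal from native DNA and from DNA of the btl driver transgene cannot be told apart.

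The ligand gene bnl held 2 sites, with btl fold enrichments of 5.55 and 2.53 and replicate 3 values of 3.57 and 1.94. stumps, an adaptor of FGF receptors, held 5 sites from 2.47 to 4.67, and its strongest had its summit at the same base in both btl lists with 4.89 in replicate 3. Its 2 shared sites had 6.98 and 5.76. The ETS factor gene pnt held 11 sites from 1.96 to 5.63 with 1 shared, and aop, an ETS repressor, held 6 from 2.22 to 4.14 with 1 shared. The inhibitor gene sty held 2, at 2.11 and 2.29. ths and pyr, ligands of the mesodermal FGF receptor, held 7 and 3 sites and no shared one, with maxima of 7.28 and 5.87. htl, the receptor for both, held none. In all, 38 of the 43 intragenic sites of this pathway in both btl lists (88.4%) had no trh region, against 69.8% of all such sites. This was not particular to the pathway. The share was 87.5% for actomyosin, 86.8% for Notch and 86.7% for integrin, laminin and metalloprotease genes. It was lower in other lists, such as 55.6% for factors of tracheal identity and 54.8% for BTB factors. Of the 38 sites, 11 were in pnt and 7 in ths.

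The factors of tracheal identity and branching held sites in 2 of 17 genes, and in 2 of the 10 over 10 kb. grh, an epithelial transcription factor gene, held 4 sites, from 1.78 to 3.45 in the btl list and up to 5.01 in replicate 3. rib itself held 1, with 2.34 and 2.74 (2R, summit 19274266), between 2 shared sites. trh held no such site and 2 shared ones. Of the salivary gland list 4 of 12 held a site (4 of 6 over 10 kb), namely hth, tai, Btk and CrebA, a secretory pathway regulator with 2 sites at 4.70 or lower.

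Hox genes and their cofactors had the highest share of sites without a trh region among lists with over 5 sites, 96.9%: 31 sites had no trh region and 1 had one. Of 11 genes 6 held a site, all over 10 kb, and 4 of the 6 had no trh region at all. Antp held 6 sites from 1.99 to 3.51, abd-A 5 from 2.48 to 4.28, Abd-B 2 and lab 1. Ubx held 5, from 2.60 to 5.25 in the btl list, and its highest replicate 3 value was 6.52. hth supplied 12 of the 31 sites and the 1 shared site. Scr, pb, Dfd, exd and tsh held none.

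The ecdysone response list held 44 sites without and 65 with a trh region, so 40.4% lacked one. Sites without one lay in 8 of 12 genes and in 8 of 11 over 10 kb. The receptor gene EcR held 10 and 4, Hr39 5 and 2, and Hr4 5 and 5. BTB factors held 23 without and 19 with, in 10 of 15 genes and 9 of 11 over 10 kb, of which psq, with a DNA-binding domain of the same family as Rib, held 7 with a maximum of 6.12.

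**Figure D5:**
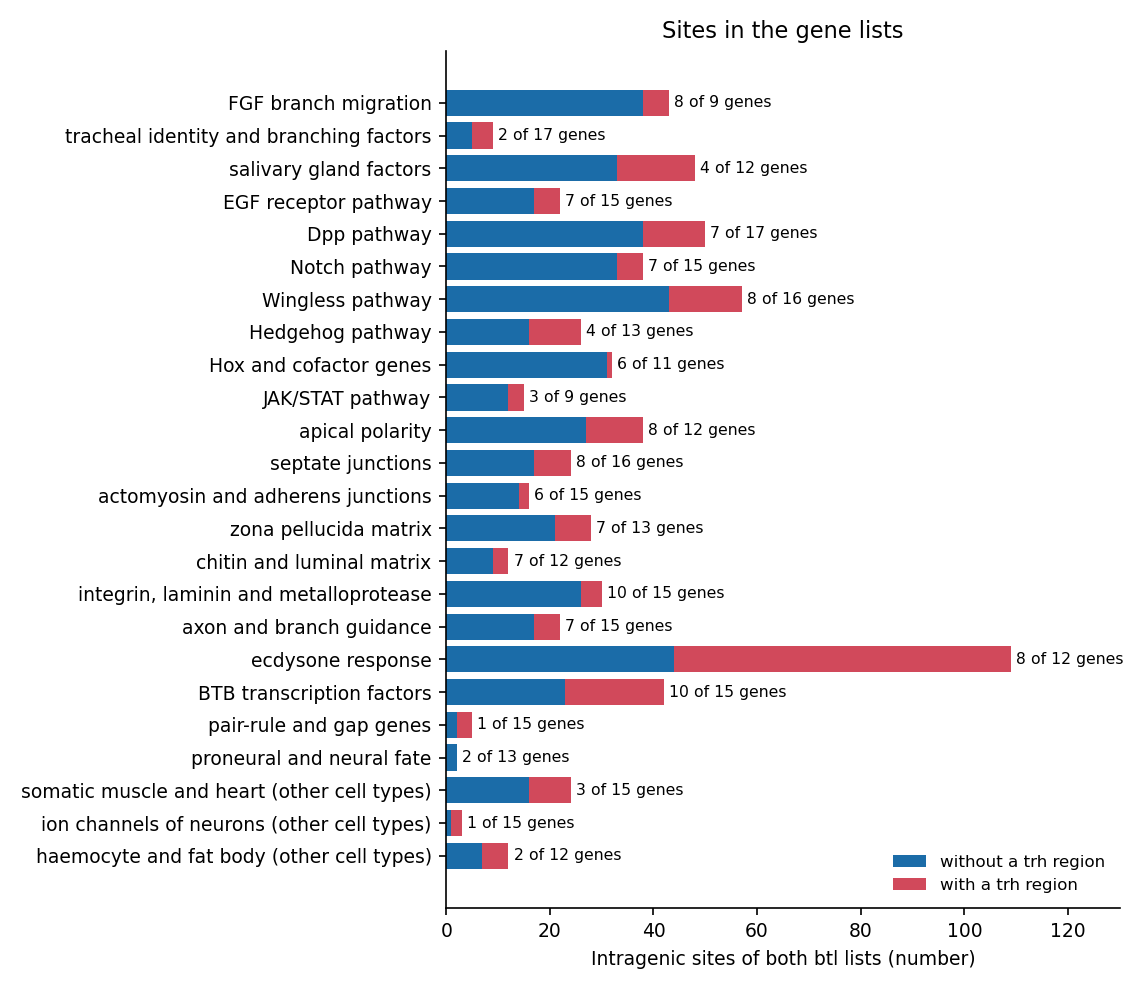
Number of intragenic sites found in both btl lists (x axis) in each gene list, without (blue) and with (red) a trh region, with the number of genes that held a blue site. Hox and cofactor genes had 31 and 1, and ecdysone response genes 44 and 65.

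For the other signalling pathways, a site was found in 8 of 16 Wingless, 7 of 15 Notch, 7 of 17 Dpp, 7 of 15 EGF receptor, 4 of 13 Hedgehog and 3 of 9 JAK/STAT genes. Of their genes over 10 kb, 6 of 10, 7 of 8, 7 of 9, 5 of 6, 4 of 6 and 3 of 3 held one, in the same order. The receptor gene N held 9 sites and no shared one, from 1.73 to 5.37, and Delta, its ligand, held 2 at 4.89 and 3.74. mam, a Notch coactivator, held 10. In the Dpp pathway the nuclear factor gene shn held 10, the receptor gene tkv 8 with a maximum of 5.76, dally, a heparan sulfate proteoglycan gene, 7 with a maximum of 6.05, and dpp 4 with a maximum of 4.35. In the Wingless pathway the feedback inhibitor gene nkd held 9 and the receptor gene fz held 7, while wg held 1 at 2.22. Egfr held 4 sites, from 1.71 to 3.26. The Hedgehog receptor gene ptc held 2, and hh, smo and ci none.

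Integrin, laminin and metalloprotease genes held a site in 10 of 15 cases and in 8 of 9 over 10 kb. Their 26 sites had a median btl fold enrichment of 3.76, against 2.97 over all sites. In replicate 3 their median was lower than that of all sites, 2.24 against 2.54. The integrin gene mew held 7 with a maximum of 5.30, the integrin gene if held 3 with a maximum of 7.80, and the metalloprotease gene Mmp1 held 4 with a maximum of 5.48. Of apical polarity genes 8 of 12 held one, and 8 of 9 over 10 kb. baz and sdt held 7 each, with maxima of 5.64 and 4.22. crb, the apical determinant, held 2 sites with btl fold enrichments of 2.36 and 2.17 and replicate 3 values of 2.75 and 4.45. Moe, which links actin to the membrane, held 1 site at 2.43 and 5 shared ones.

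Septate junction genes held a site in 8 of 16 cases and in 6 of 6 over 10 kb, with maxima of 6.58 in the adhesion gene Fas3, 6.19 in Nrg and 6.08 in Lac. Actomyosin genes did so in 6 of 15 cases and in 4 of 8 over 10 kb, close to the 43% of all such genes. Of the zona pellucida genes, which encode apical matrix proteins, 7 of 13 held one (6 of 9 over 10 kb), and tyn had the highest at 7.02. Of the chitin and luminal matrix genes 7 of 12 held one, including 3 of the 4 over 10 kb. The sites were single in reb (5.97), the chitin synthase gene kkv (4.79), the deacetylase genes serp (4.56) and verm (3.29), mmy (3.24) and uif (3.31), and exp held 3. Guidance genes held a site in 7 of 15 cases and in 6 of 13 over 10 kb, with 4 in Sema1a, 3 in fra, 3 in the ligand gene sli and 2 and 1 in its receptor genes robo2 and robo1.

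Lists for other cell types and for early patterning held sites in 1 to 3 genes each. Such low counts were not particular to them: tracheal identity factors had 2 of 17 and JAK/STAT genes 3 of 9. Only 1 of 15 neuronal ion channel genes held a site, para, with 1 at 4.34, although 14 of the 15 were over 10 kb. Of the somatic muscle and heart genes 3 of 15 did (3 of 9 over 10 kb), of which how held 7, rols 6 and Msp300 3. Haemocyte and fat body genes did so in 2 of 12 cases, ush with 6 and srp with 1, and in 2 of 5 over 10 kb, which is close to the 43% of all such genes. Pair-rule and gap genes held a site in 1 of 15 cases, cnc with 2, and proneural genes in 2 of 13 cases. Of their few genes over 10 kb, 1 of 2 and 1 of 3 held one. No cytoplasmic ribosomal protein gene held a site, and none of them was over 10 kb. Gene length moved with most of these counts, and neither its part nor any difference between lists was tested.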

How the data were processed

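Chromatin of whole embryos was cross-linked in 1.8% formaldehyde and sequenced as 50 bp single-end reads, per the labels' protocols. The submitters' processing notes name CASAVA 1.8.2, Bowtie2 2.3.4.3 and 2.3.4.1, SAMtools 1.9 and 1.7, Picard, MACS2 2.2.4, bedtools and build dm6, without role or order. The authors deposited peak lists: 1 for btl replicates 1 and 2 and 1 for trh replicates 1 and 2, at an irreproducible discovery rate of 0.1 per the file names in the labels, and 1 for btl replicate 3. A deposited list of 2198 highest-confidence regions overlapped none of the sites. No sample label names that list, and its overlap with other btl regions was not counted. Because the sites were chosen for having no trh region, the rule may set this result, and nothing is concluded from it. The columns have no header. By the layout that MACS2 writes, the authors' fold column is a ratio over background at the summit, the authors' -log10 column used here holds q-values (3 columns of p-values, 1 a list, were not used), and the deposited score is capped at 1000 in the lists of replicates 1 and 2. Values belong to each list and were not compared as levels between lists. Peak lists give no read depth. Wilson intervals cover counting error only.

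Coordinates are 1-based on Release 6, with genes from the RefSeq table of that assembly on the 6 arms 2L, 2R, 3L, 3R, 4 and X. Overlap meant 1 shared bp. Replicate 3 values are those of the summit nearest to the btl summit. The exception is -log10 q in the rank correlation: the highest among overlapping regions, each taken at its summit of highest fold enrichment. Overlap and distance functions were tested on simulated data. Python 3.11.15, pandas 2.3.3, numpy 2.4.6 and scipy 1.17.1 were used. No test was made, since replicates 1 and 2 share 1 list per driver and presence in the lists chose the sites. Sites, the 24 gene lists and the alternatives were chosen with earlier results of these data known. Some genes are in more than 1 list. Apart from results not reported here, named were the 15 genes with most sites, the 10 highest sites of each btl list and the 3 lowest of btl, up to 4 host genes a list, sites at the limits, and btl, trh and rib. Named outside that rule, after their values were seen, were further genes of the lists. Sequences around summits were not analysed here.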

Additional observations from a re-analysis of the deposited data

How the results depend on the processing

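No paired analysis was possible because each driver's replicates 1 and 2 were deposited as 1 list and no result comes from a test. Of 12 alternatives, 9 kept the number of sites within 1.5 times of 2602, and 9 kept the number of host genes within 1.5 times of 1233. The upper 50% of the btl list by fold enrichment gave 1416 sites in 799 genes, with a median fold of 3.69, 66.4% of summits within 100 bp and a median gene length of 22260 bp. The upper 50% by -log10 q gave 1285, 816, 3.79, 67.6% and 20568.5 bp in that order. Shortening the btl list to the length of the trh list, an alternative chosen after seeing the data, gave 923, 644, 4.18, 69.4% and 23100.5 bp. Without replicate 3 the median fold was 2.92 and 49.4% of summits had a replicate 3 summit within 100 bp, with regions that replicate 3 lacks counted in. That share was 64.7% with a replicate 3 summit inside the region and 52.7% with region midpoints. Allowing up to 50% trh coverage gave a median fold of 3.05. Gene-end windows of 250 and 1000 bp gave median gene lengths of 14534 and 18804 bp. The unknown depth of the libraries limits every statement on absence.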

Other observations

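Of the 2602 sites, 93 (3.57%) lay in or within 500 bp of a long non-coding RNA gene, against 6.07% of the whole btl list and 4.43% of shared sites. The whole list also holds gene-end and intergenic regions, which the rule leaves out. Shared sites, chosen by the same limits on position, are the closer comparison here and below. For tRNA genes the count was 11 (0.423%), against 70 (0.805%) of the whole list and 3 (0.266%) of shared sites. For small nucleolar RNA genes it was 8 (0.307%), near the 31 (0.357%) of the whole list, and it was 0 of 1128 shared sites (Wilson 95% upper bound 0.339%). For microRNA genes it was 1 (0.0384%), against 23 (0.265%) of the whole list and 4 (0.355%) of shared sites; these differences were not tested. That site was 220 bp from mir-4957 in Top1, the topoisomerase gene, with a fold enrichment of 2.73 in the btl list and 5.80 in replicate 3.

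Neighbouring sites were a median of 10392 bp apart, and 461 neighbouring pairs lay within 2000 bp. The sites touched 2515 replicate 3 regions. Of those regions 190 touched 2 or more sites, and the most sites touched by a single region was 5. At 304 sites (11.7%) the same replicate 3 region also touched a trh region elsewhere along its length.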
